A study of Homo sapiens with 16 samples.

Results

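Open-chromatin regions were compared between human chromosome 18, which is poor in genes, and human chromosome 19, which is rich in them, in IMR90 lung fibroblasts with an active or inactive Raf kinase under low or normal oxygen. The peaks of all 16 libraries were pooled, intervals that shared at least 1 bp were merged, and a region was kept when at least 2 libraries had a peak in it. This left 6408 regions on chromosome 18 and 8203 on chromosome 19, 14611 of the 299052 regions kept over chromosomes 1 to 22 and X. The same merge gave 355447 regions before the rule on libraries. Just outside that rule lay 1202 regions of chromosome 18 and 1484 of chromosome 19 with a peak in 1 library, of median width 220 and 224 bp. Just inside it, with a peak in 2 libraries, lay 609 and 762 regions of median width 266 and 267 bp.

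The assay was ATAC-seq, in which the transposase Tn5 inserts sequencing adapters into accessible DNA, so that stretches of open chromatin appear as peaks of reads. IMR90 is an established line of human fetal lung fibroblasts. All 4 groups were IMR90 cells, and the protocol in the labels describes infection with a retrovirus that carries △B-RAF:ER, a truncated B-RAF fused to the estrogen receptor, and treatment with 4-hydroxy-tamoxifen (4-OHT), the ligand that switches the fusion on. The groups were Raf-active cells in hypoxia, Raf-active cells in normoxia, Raf-inactive cells in hypoxia and Raf-inactive cells in normoxia, with 4 libraries each. Hypoxia was 0.5% O2, and each library was made from 50000 nuclei. The labels give no dose or duration, do not say which groups received the ligand, and do not say whether replicates were separate cultures, so p-values measure the spread between libraries, which may be technical. The fusion came from a retrovirus in a population of cells, and the labels name neither its promoter nor a clone.

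Chromosomes occupy preferred places in the nucleus of human fibroblasts: the gene-rich chromosome 19 tends to lie towards the interior and the gene-poor chromosome 18 towards the nuclear lamina, a sheet of filaments under the nuclear membrane to which silent chromatin is tethered. Sustained Raf signalling drives fibroblasts into oncogene-induced senescence, a permanent arrest in which lamina-bound heterochromatin is rearranged. The design text of the series asks how low oxygen changes chromatin accessibility in that state.

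Promoter sequences were read from RefSeq (GRCh38.p14). The 6 shown are the 250 bases before the transcription start, 5′ to 3′ on the strand of the gene, and they are examples of promoter patterns described below. A single start per gene was used, so any other start of a gene was not examined. SERPINB7, a serine protease inhibitor, was the chromosome 18 promoter with a peak in every Raf-active and no Raf-inactive library. ERCC1 (a subunit of a DNA repair nuclease), GMFG (a regulator of branched actin) and HNRNPL (a splicing factor) behaved that way on chromosome 19. TPM4, a tropomyosin, was the chromosome 19 promoter with the opposite pattern. CDH2, which encodes N-cadherin, had a promoter peak in all 16 libraries although its locus had fewer peaks with Raf. Capitals mark a GC box, GGGCGG or its reverse complement CCGCCC, the letters bound by Sp1-type factors.
SERPINB7 (chr18:63752807-63753056, plus strand): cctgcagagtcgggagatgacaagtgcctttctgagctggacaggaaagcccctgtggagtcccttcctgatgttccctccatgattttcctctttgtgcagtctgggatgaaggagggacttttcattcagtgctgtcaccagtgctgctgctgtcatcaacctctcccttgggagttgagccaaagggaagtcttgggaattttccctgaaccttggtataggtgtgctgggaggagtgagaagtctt
CDH2 (chr18:28177131-28177380, minus strand): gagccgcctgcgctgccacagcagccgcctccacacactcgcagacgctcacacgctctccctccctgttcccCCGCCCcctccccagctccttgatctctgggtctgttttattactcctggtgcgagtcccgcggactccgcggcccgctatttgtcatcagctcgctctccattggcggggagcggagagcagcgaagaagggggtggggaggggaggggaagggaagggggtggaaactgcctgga
ERCC1 (chr19:45451548-45451797, minus strand): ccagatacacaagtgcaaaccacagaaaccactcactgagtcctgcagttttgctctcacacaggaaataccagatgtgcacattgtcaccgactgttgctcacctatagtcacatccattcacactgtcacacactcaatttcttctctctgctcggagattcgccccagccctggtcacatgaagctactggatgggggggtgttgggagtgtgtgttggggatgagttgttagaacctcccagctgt
GMFG (chr19:39336044-39336293, minus strand): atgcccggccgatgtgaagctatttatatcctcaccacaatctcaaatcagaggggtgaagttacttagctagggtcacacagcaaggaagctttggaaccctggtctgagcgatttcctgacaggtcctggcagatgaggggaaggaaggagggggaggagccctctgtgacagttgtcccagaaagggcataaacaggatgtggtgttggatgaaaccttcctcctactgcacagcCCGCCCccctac
HNRNPL (chr19:38852348-38852597, minus strand): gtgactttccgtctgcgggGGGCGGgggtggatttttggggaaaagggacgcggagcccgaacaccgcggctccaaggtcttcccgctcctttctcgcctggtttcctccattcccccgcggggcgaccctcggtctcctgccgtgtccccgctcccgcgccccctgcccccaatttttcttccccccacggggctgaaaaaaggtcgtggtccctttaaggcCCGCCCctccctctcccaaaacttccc
TPM4 (chr19:16067288-16067537, plus strand): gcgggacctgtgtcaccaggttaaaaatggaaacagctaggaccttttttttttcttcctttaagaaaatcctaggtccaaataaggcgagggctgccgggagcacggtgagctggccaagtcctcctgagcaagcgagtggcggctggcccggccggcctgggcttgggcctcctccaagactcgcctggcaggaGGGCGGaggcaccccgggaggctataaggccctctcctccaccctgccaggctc

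The libraries held 169287 to 206757 distinct peaks each. Their background pileup, a measure of coverage recovered from the listed fold and p of each peak, ran from 6.53 to 8.34 in Raf-active hypoxia, from 6.09 to 7.10 in Raf-active normoxia, from 4.61 to 5.02 in Raf-inactive hypoxia and from 3.01 to 3.50 in Raf-inactive normoxia. Depth therefore moved with Raf in both oxygen states, and with hypoxia in Raf-inactive cells, in each case with no overlap. The ratio, the shares and the region counts are also given at matched depth, with peaks thinned to the shallowest library. Of 7 fibroblast markers, 4 had a peak within 1 kb of a gene end in all 16 libraries, whereas THY1, a fibroblast surface antigen, had none. Summed over the 4 libraries of a group, fibroblast markers had peaks in 21 of 28 cases in Raf-active hypoxia, 19 in Raf-active normoxia, 21 in Raf-inactive hypoxia and 24 in Raf-inactive normoxia. Markers of other cell types had peaks too, in 12, 12, 14 and 16 of 24 cases for epithelial genes and in 12, 10, 9 and 9 of 24 for blood genes, in the same order of groups. Endothelial markers had 12, 10, 9 and 8 of 20 and neuronal markers 12, 11, 14 and 14 of 20. Their part in the results was not tested.

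Raf-active cells had many more peaks on chromosome 19 and about as many on chromosome 18. In normoxia, chromosome 19 carried 7245, 7221, 6680 and 7035 peaks in the Raf-active libraries, against 4302, 4242, 4231 and 4306 in the Raf-inactive libraries. Every Raf-active library was far above every Raf-inactive one. On chromosome 18 the Raf-active libraries in normoxia had 3786, 3882, 3757 and 4034 peaks, against 3958, 3917, 3943 and 3977 in Raf-inactive libraries, so that the groups overlapped. In hypoxia, chromosome 19 carried 6306, 6151, 6446 and 6295 peaks in the Raf-active libraries and 4029, 4004, 3903 and 3966 in the Raf-inactive libraries. Chromosome 18 carried 4271, 4175, 4340 and 4209 peaks in Raf-active hypoxia and 3881, 3900, 3812 and 3903 in Raf-inactive hypoxia. There the Raf-active libraries were higher on both chromosomes, with no overlap. In such bulk libraries fewer cells with an open site and a weaker signal in each cell cannot be told apart.

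**Figure D1:**
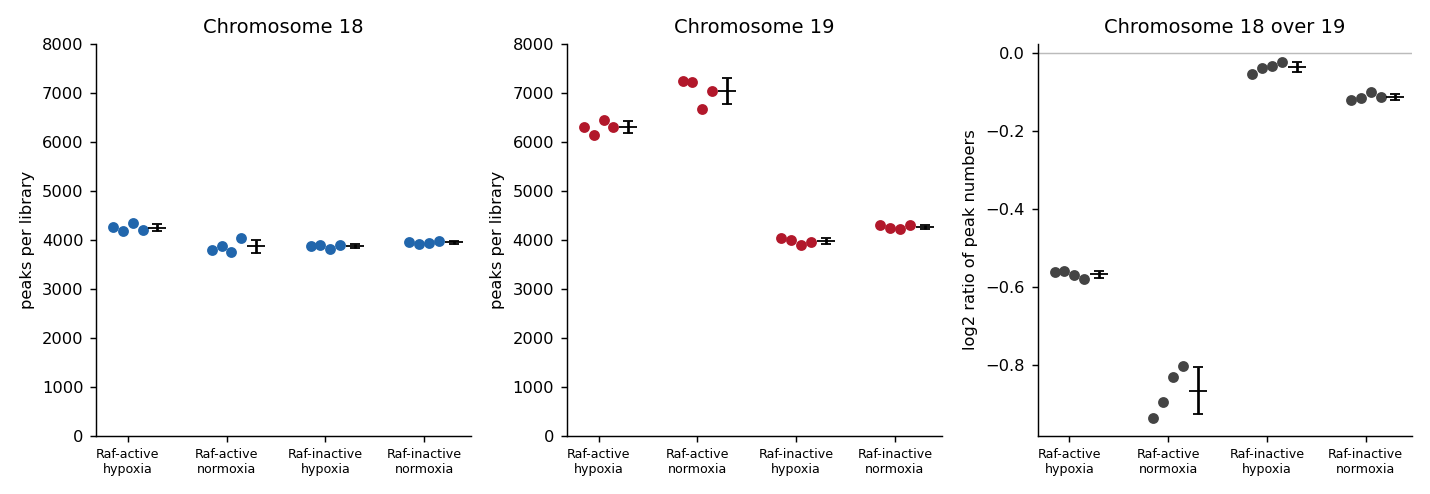
Peaks per library on chromosome 18 and chromosome 19 (left and middle panels, number of distinct peaks) and the log2 ratio of chromosome 18 to chromosome 19 peaks (right panel) in the 4 groups; points are libraries, and the horizontal mark and error bar beside them are the group mean and SD (n = 4). Chromosome 19 lies between 6151 and 7245 peaks in the Raf-active libraries and between 3903 and 4306 in the Raf-inactive ones, while chromosome 18 stays between 3757 and 4340 in all of them.

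The ratio of chromosome 18 to chromosome 19 peaks fell with Raf in both oxygen states. In normoxia it averaged 0.549 ± 0.023 in Raf-active cells and 0.925 ± 0.0051 in Raf-inactive cells (SD, n = 4 each), a fold of 0.593 or a log2 difference of -0.75 (exact permutation test, two-sided, p = 0.0286, adjusted p = 0.0357 over 15 tests). In hypoxia it averaged 0.674 ± 0.0045 in Raf-active cells and 0.975 ± 0.0086 in Raf-inactive cells, a fold of 0.692 or a log2 difference of -0.53 (exact permutation p = 0.0286, adjusted p = 0.0357). No library of either group overlapped the other, and 0.0286 is the smallest p that 4 against 4 can give. At matched depth the log2 differences were -0.72 in normoxia and -0.53 in hypoxia, and over peaks further than 1 kb from any gene end they were -0.92 and -0.69.

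Hypoxia moved the ratio the other way. In Raf-active cells it was 1.23-fold higher in hypoxia than in normoxia, a log2 difference of 0.30, and in Raf-inactive cells 1.05-fold higher, a log2 difference of 0.076 (exact permutation p = 0.0286 and adjusted p = 0.0357 for each, no overlap). At matched depth these differences were 0.27 and 0.078. The log2 change with Raf was smaller in hypoxia by 0.22 (permutation of oxygen labels within each Raf state, exact p = 0.0404, adjusted p = 0.0466), a test of whether oxygen had any effect rather than of unequal effects alone. That call was lost among peaks of at least 5-fold enrichment, where the difference was 0.069 (exact permutation p = 0.379), at matched depth, where it was 0.20 (exact permutation p = 0.0694), and in 3 other alternatives. Leaving out a library kept the difference between 0.20 and 0.24, and the exact permutation p exceeded 0.05 without any of the 4 Raf-active normoxia or 4 Raf-active hypoxia libraries, without Raf-inactive normoxia replicate 3 or without Raf-inactive hypoxia replicate 1.

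As a share of all peaks, both chromosomes moved with Raf, in opposite directions. Chromosome 18 held 1.94 ± 0.042% of peaks in Raf-active normoxia, against 2.23 ± 0.012% in Raf-inactive normoxia, and chromosome 19 held 3.53 ± 0.076% against 2.41 ± 0.018% (SD, n = 4 each). In hypoxia chromosome 18 held 2.11 ± 0.011% in Raf-active cells and 2.24 ± 0.018% in Raf-inactive cells, and chromosome 19 held 3.13 ± 0.013% and 2.30 ± 0.0049%. Each of these 4 differences had an exact permutation p of 0.0286 (adjusted p = 0.0357), with no overlap. The chromosome 18 difference in hypoxia, -0.135 percentage points over all peaks, was -0.039 points at 5-fold enrichment or more (exact permutation p = 0.0571). With hypoxia the chromosome 18 share of Raf-active cells was higher by 0.171 percentage points (exact permutation p = 0.0286), and that of Raf-inactive cells differed by less than the spread between libraries (0.012 points, exact permutation p = 0.314, groups overlapping). The chromosome 19 share was lower in hypoxia by 0.405 points in Raf-active and by 0.111 points in Raf-inactive cells, both with an exact permutation p of 0.0286. At matched depth the differences with Raf were -0.131 points in hypoxia and -0.267 in normoxia for chromosome 18, and 1.10 in normoxia for chromosome 19, and all 4 kept their direction and an exact permutation p of 0.0286.

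The length of chromosome under peaks was compared as well. Chromosome 19 had 3.35 Mb under peaks in Raf-active hypoxia, 3.45 Mb in Raf-active normoxia, 2.10 Mb in Raf-inactive hypoxia and 2.14 Mb in Raf-inactive normoxia. Chromosome 18 had 1.99, 1.68, 1.76 and 1.72 Mb in the same order. Per Mb, chromosome 19 carried 108, 120, 67.9 and 73.0 peaks and chromosome 18 carried 53.0, 48.2, 48.3 and 49.3. The typical chromosome 19 peak was weaker against its surroundings in Raf-active cells: its median fold over local background, as the authors' caller gave it, lay between 5.12 and 5.85 in the Raf-active libraries and between 7.11 and 7.85 in the Raf-inactive ones. On chromosome 18 the medians ran from 6.08 to 6.54 in Raf-active libraries and from 6.44 to 7.49 in Raf-inactive libraries. The local background under the peaks of chromosome 18, as a ratio to that of chromosome 19, averaged 0.653 in Raf-active hypoxia, 0.544 in Raf-active normoxia, 0.725 in Raf-inactive hypoxia and 0.672 in Raf-inactive normoxia, so it moved in the direction of the peak numbers.

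The pair lay at the ends of the scale of gene density. Chromosome 18 had 3.34 protein-coding genes per Mb, the lowest of 23 chromosomes, and chromosome 19 had 24.1, the highest. With Raf in normoxia the log2 change in the share of peaks was highest of all on chromosome 19 (0.55), and that of chromosome 18 was the fourth lowest (-0.20), chromosome 4 being lowest at -0.45. With Raf in hypoxia chromosome 19 came next to the top (0.44, below chromosome 22 at 0.48) and chromosome 18 was rank 7 from the lowest (-0.090). With hypoxia in Raf-active cells chromosome 19 changed most downwards (-0.18) and chromosome 18 was rank 22 of 23 (0.12), below X. Over the 23 chromosomes the change followed gene density with Spearman's rho of 0.85 for Raf in normoxia and 0.83 in hypoxia, and -0.76 for hypoxia in Raf-active cells. These are descriptions over chromosomes that share the same libraries, and chromosome 18 did not have the strongest loss although it was the poorest in genes.

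**Figure D2:**
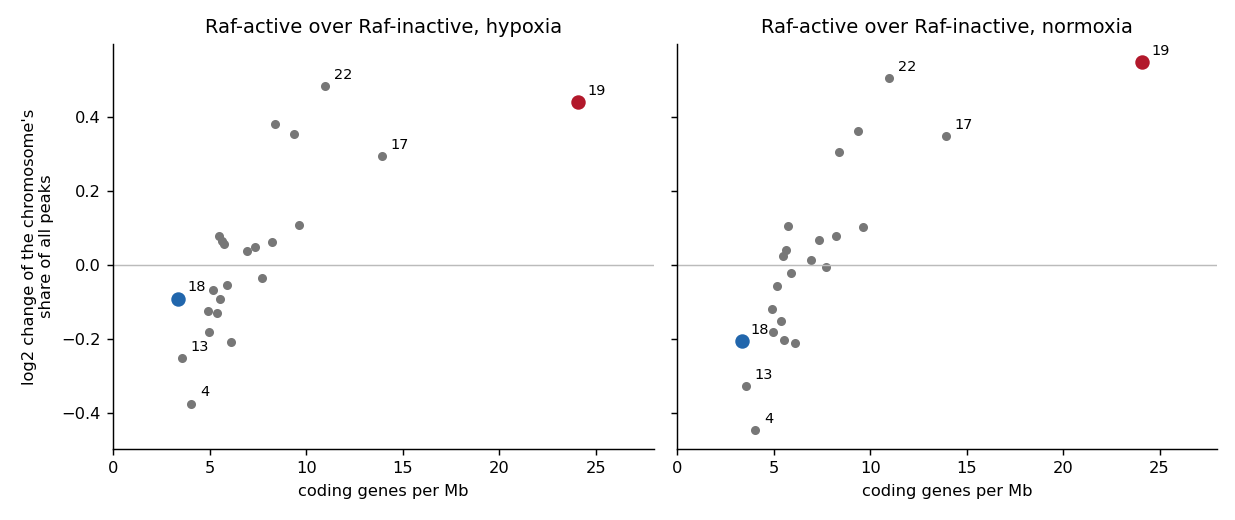
Change in each chromosome's share of peaks (vertical axis, log2) against its protein-coding genes per Mb (horizontal axis), for Raf-active over Raf-inactive cells in hypoxia (left) and in normoxia (right); each point is 1 of 23 chromosomes, and some are marked with their number. Chromosome 19 stands at the far right at 0.44 in hypoxia and 0.55 in normoxia, and chromosome 18 at the far left at -0.090 in hypoxia and -0.20 in normoxia.

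Regions were gained with Raf when all 4 Raf-active and no Raf-inactive libraries had an overlapping peak, and lost the other way round. In normoxia 744 regions of chromosome 18 were gained and 831 lost, 11.6% and 13% of its regions. On chromosome 19, 1685 were gained and 198 lost, 20.5% and 2.41%. Over all regions 14.1% were gained and 10.6% lost, so chromosome 19 was above the background for gains and far below it for losses, and chromosome 18 lay near it. In hypoxia 839 regions of chromosome 18 were gained and 661 lost (13.1% and 10.3%), and 1424 of chromosome 19 were gained and 145 lost (17.4% and 1.77%), against 13.8% gained and 8.82% lost over all regions. At matched depth the normoxia counts were 571 gained and 832 lost on chromosome 18 and 1259 gained and 216 lost on chromosome 19. In hypoxia they were 609 and 631 on chromosome 18 and 1004 and 160 on chromosome 19.

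**Figure D3:**
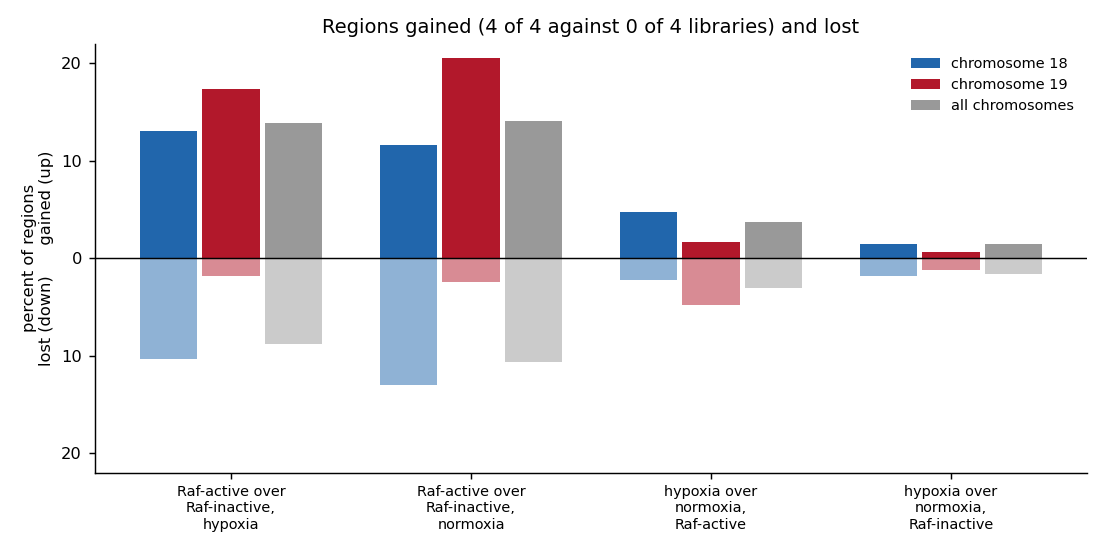
Regions gained and lost (vertical axis, percent of regions, gains drawn upwards and losses downwards) on chromosome 18, on chromosome 19 and over all regions, for the 4 comparisons. With Raf, chromosome 19 shows 17.4% gained in hypoxia and 20.5% in normoxia but 1.77% and 2.41% lost, whereas on chromosome 18 gains and losses lie between 10.3% and 13.1%.

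With Raf in both oxygen states, 389 regions of chromosome 18 were gained, 52.3% of its normoxia gains and 46.4% of its hypoxia gains, and 394 were lost, 47.4% and 59.6% of those lists. On chromosome 19, 793 were gained (47.1% and 55.7%) and 90 lost (45.5% and 62.1%). Over all regions 6.98% were gained and 5.41% lost in both. Those gains were 49.4% of the normoxia and 50.4% of the hypoxia list, and those losses 50.8% and 61.3%. The overlaps on both chromosomes lay near these. Of the chromosome 18 gains in normoxia 1 was a loss in hypoxia, and likewise 1 on chromosome 19. A peak in all 16 libraries was found in 25.7% of chromosome 18 and 31.4% of chromosome 19 regions, beside 26.3% of all regions. Regions with a peak in every Raf-active normoxia library and no other made up 1.53% of chromosome 18 and 3.8% of chromosome 19. Over all regions this share was 2.20%. Regions seen in every library of the other 3 groups and in no Raf-active normoxia library made up 1.20% of chromosome 18 and 0.171% of chromosome 19. That pattern made up 0.863% of all regions.

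Hypoxia changed fewer regions than Raf. In Raf-active cells 307 regions of chromosome 18 were gained and 145 lost with hypoxia (4.79% and 2.26%), against 137 gained and 392 lost on chromosome 19 (1.67% and 4.78%), with 3.69% gained and 3.06% lost over all regions. At matched depth chromosome 18 had 194 gained in that comparison. In Raf-inactive cells 97 regions of chromosome 18 were gained and 114 lost (1.51% and 1.78%) and 50 of chromosome 19 were gained and 101 lost (0.610% and 1.23%), against 1.5% and 1.59% over all regions.

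The 2 chromosomes differed in where their open regions lay. No further than 1 kb from a coding gene's start or end lay 5.48% of chromosome 18 regions, against 22.6% of chromosome 19 regions and 8.62% of all. Outside genes, the median distance to the nearest coding gene was 52392.5 bp on chromosome 18 and 6286.5 bp on chromosome 19. Of the chromosome 18 regions lost with Raf in both oxygen states 57.1% lay inside coding genes, against 51.2% of those gained in both and 55.2% of all on the chromosome. Those outside genes had a median distance of 137742 bp when lost and 38304 bp when gained, and over all chromosomes these medians were 78034 and 27526 bp. Of all such lost regions of chromosome 18, 25.1% were over 100 kb from any coding gene, against 10.8% of gained ones, beside 18.4% and 10.8% over all chromosomes. On chromosome 19 the gains were spread over every position, with 12.9% of the regions at gene ends gained with Raf in normoxia, 22.9% of those inside genes and 22.7% of those outside. On chromosome 18 those shares were 7.41%, 11.4% and 12.4% for gains and 3.13%, 15% and 11.9% for losses. Over all regions they were 10.3%, 13.9% and 15.2% for gains and 3.08%, 12.1% and 10.5% for losses. Gene ends thus had the lowest share of gains with Raf in normoxia on both chromosomes, as they did over all regions.

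The single regions of highest rank, by the -log10 p that the authors' caller gave within a list, lay inside genes in some cases and far from them in others. A percentile of 100 is the strongest peak of a library's list, and percentiles are means over the 4 libraries of a group. On chromosome 18 a region of 715 bp inside ALPK2, an atypical kinase gene, at chr18:58615608-58616322, had a mean percentile rank of 97.6 in Raf-active normoxia and no peak in Raf-inactive normoxia. It also had peaks in all 4 Raf-inactive hypoxia libraries, at a mean percentile of 54.8, so it was not a Raf gain in hypoxia. The region over the SERPINB7 start (chr18:63752309-63753215, 907 bp) was at percentile 52.1 in Raf-active hypoxia and 92.5 in Raf-active normoxia, with no peak in any Raf-inactive library. A region inside RAB31, a vesicle transport GTPase (chr18:9774993-9775624), reached percentiles of 83.0 in Raf-active hypoxia and 90.9 in Raf-active normoxia and was absent from the Raf-inactive lists. The highest-ranked region gained in both oxygen states lay far from genes, 229257 bp from RBBP8, a DNA end-resection factor (chr18:22683842-22684882).

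DYM, a gene of Golgi organisation, held regions of both kinds. Its region chr18:49210509-49210988 was at percentiles of 87.4 and 85.7 in Raf-active hypoxia and normoxia and absent from Raf-inactive lists. Its region chr18:49359720-49360251 was absent from all Raf-active lists and at percentiles of 89.7 and 89.5 in Raf-inactive hypoxia and normoxia. Other chromosome 18 regions lost in both oxygen states lay 10999 bp from RTTN, a centriole gene, and 6498 bp from ZNF24, a zinc finger gene. In normoxia the top losses were inside C18orf63 and PIGN, an enzyme of GPI-anchor synthesis, at percentiles of 96.5 and 94.6 in Raf-inactive normoxia.

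On chromosome 19 the top gains in both oxygen states included regions inside MAP1S, a microtubule-associated protein (chr19:17721381-17722188), and RYR1, the calcium release channel of muscle (chr19:38551338-38551979). Their mean percentiles in Raf-active libraries were 96.2 in hypoxia and 95.6 in normoxia for MAP1S, and 96.9 and 92.3 for RYR1. Neither had a peak in a Raf-inactive library. The top losses in both were inside SMG9, a factor of nonsense-mediated decay (chr19:43735888-43736600), near FAM32A (4357 bp away) and inside UBA2, a SUMO-activating enzyme subunit (chr19:34452448-34453528). A region inside URI1, a prefoldin family member (chr19:29965394-29965962), was absent from Raf-active normoxia but present in all 12 libraries of the other groups, at percentiles of 50.8 in Raf-active hypoxia, 94.9 in Raf-inactive hypoxia and 92.7 in Raf-inactive normoxia.

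A smaller share of promoters than of regions was gained or lost, but the 2 sets are unlike. Of the 15812 promoters 25.3% had no peak in any library and could be neither, whereas regions needed a peak in at least 2. A peak overlapped the promoter window (250 bases before to 50 after the start) in 67.2% of 234 chromosome 18 promoters in Raf-active hypoxia, 65.4% in Raf-active normoxia, 66.2% in Raf-inactive hypoxia and 64.1% in Raf-inactive normoxia. For 1185 chromosome 19 promoters the shares were 71.0%, 70.4%, 67.1% and 67.1%. In all 16 libraries 58.5% of the chromosome 18 and 63.1% of the chromosome 19 promoters were open, beside 62.4% of all promoters. With Raf in normoxia 2 chromosome 18 promoters were gained and 1 lost, and 23 chromosome 19 promoters were gained and 1 lost, against 1.33% gained and 0.873% lost over 15812 promoters. In hypoxia 4 were gained and 3 lost on chromosome 18, and 21 gained and 2 lost on chromosome 19, against 1.46% and 0.576%.

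In both oxygen states the SERPINB7 promoter was gained on chromosome 18. On chromosome 19 the gained promoters were those of ERCC1, GMFG, HNRNPL, GRIN2D (an NMDA receptor subunit), HAPLN4 (a link protein of the extracellular matrix), NIBAN3, SLC17A7 (a vesicular glutamate transporter) and TLE5 (a transcriptional co-repressor), and TPM4 was lost. Over all promoters 0.557% were gained and 0.297% lost in both. Each of these 10 had a peak in 4 of 4 libraries of both groups of its state and in 0 of 4 of the others. The CDH2 promoter had a peak in every library. A GC box, on either strand of the 250 bases, was present in 57.7% of chromosome 18, 63.9% of chromosome 19 and 56.0% of all promoters, and in 6 of the 9 gained ones. The AP-1 motif TGANTCA, which reads the same on both strands, was found in 5.56%, 4.30% and 5.05% of those sets and in none of the 9 gained promoters. GRIN2D, HAPLN4, SLC17A7 and TLE5 were among those with a GC box, as the GMFG and HNRNPL sequences shown also were, and the SERPINB7 and ERCC1 sequences had none. These are letter matches, and no binding was measured.

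Along the chromosomes the change followed local gene number. Peaks were counted in bins of 1 Mb, scaled to the same total in each library, for bins with a mean of at least 10 peaks. With Raf in normoxia 10 of 61 chromosome 18 bins were higher and 51 lower, with a median log2 change of -0.23, and 49 of 55 chromosome 19 bins were higher, with a median of 0.56, beside -0.15 over all 2439 bins. On chromosome 18 the medians were -0.83 over 11 bins with 0 to 1 coding genes, -0.22 over 31 bins with 2 to 5 and -0.067 over 19 bins with 6 to 15. On chromosome 19 they were -0.012 over 4 bins with 0 to 1 genes, 0.15 over 7 bins with 6 to 15 and 0.57 over 44 bins with more. Bins of the same classes over all chromosomes had medians of -0.58 (0 to 1 genes), -0.36 (2 to 5), -0.043 (6 to 15) and 0.47 (more than 15). In normoxia the gene-poorest bins of chromosome 18 were thus lower, and the gene-richest of chromosome 19 higher, than the median of their class. The chromosome 18 bins with 2 to 5 genes, its largest class, were higher than theirs. So were the chromosome 19 bins with 0 to 1 and with 6 to 15 genes.

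In hypoxia the medians with Raf were -0.11 on chromosome 18 (23 bins higher, 38 lower) and 0.39 on chromosome 19 (52 higher, 3 lower), beside -0.095 over all bins. Chromosome 18 bins with 6 to 15 genes then had a median of 0.089, those with 2 to 5 had -0.19 and those with 0 to 1 had -0.55. Over all chromosomes these classes had medians of 0.042, -0.32 and -0.54, so the gene-poorest bins were level with their class. Chromosome 19 bins with more than 15 genes had a median of 0.41, beside 0.34 for that class. With hypoxia in Raf-active cells 45 of 61 chromosome 18 bins were higher, with a median of 0.16, and 43 of 55 chromosome 19 bins were lower, with a median of -0.17. Over all 2439 bins 1408 were then higher and 1031 lower, with a median of 0.048. These are descriptions of bins that share libraries, and no bin was tested.

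**Figure D4:**
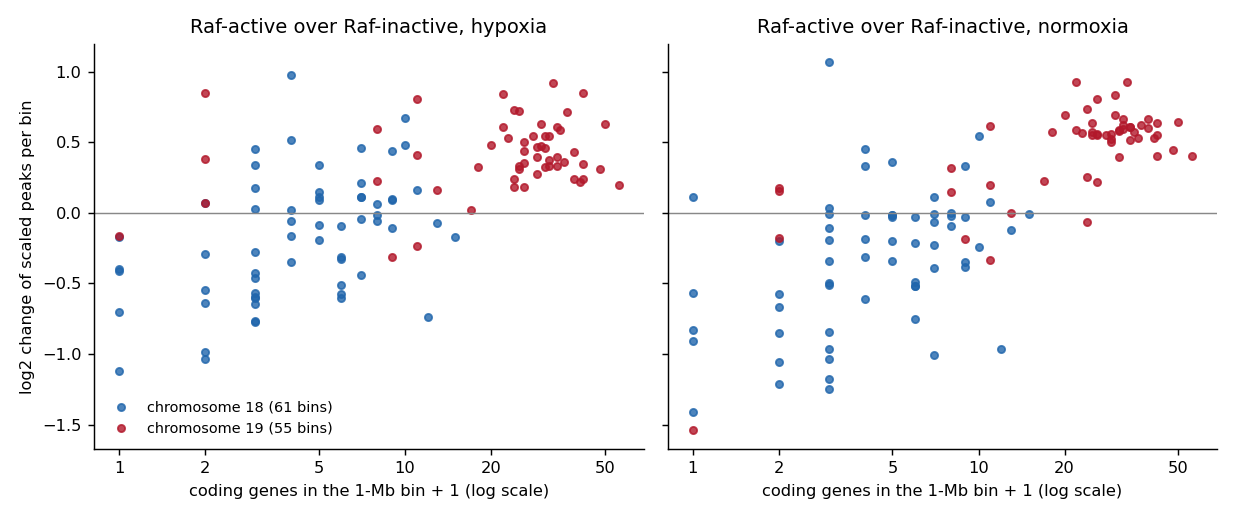
Change with Raf in the scaled number of peaks per 1-Mb bin (vertical axis, log2) against the number of protein-coding genes in the bin plus 1 (horizontal axis, log scale), for chromosome 18 and chromosome 19 in hypoxia (left) and normoxia (right); each point is a bin. In normoxia the 11 bins of chromosome 18 with 0 to 1 genes have a median of -0.83, and the 44 bins of chromosome 19 with more than 15 genes a median of 0.57.

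The bins with the most extreme log2 changes with Raf show the pattern in peak numbers. On chromosome 18 the bin from 40000001 to 41000000, which holds no coding gene, had 16 ± 1.3 scaled peaks in Raf-active normoxia and 44.3 ± 3.45 in Raf-inactive normoxia (SD, n = 4 each). In hypoxia it had 21.2 ± 1.02 in Raf-active and 47.3 ± 2.47 in Raf-inactive cells, and its log2 change with Raf was the lowest of the chromosome in both oxygen states. The bin from 42000001 to 43000000, with PIK3C3, a lipid kinase of autophagy, and RIT2, a small GTPase, had 5.64 ± 1.96 peaks in Raf-active and 14.3 ± 1.30 in Raf-inactive normoxia. The end of the long arm was higher with Raf: the bin from 79000001 to 80000000, with NFATC1, CTDP1 and ATP9B, had 140 ± 9.32 and 96.3 ± 7.91 in normoxia, and 132 ± 1.41 and 82.9 ± 2.39 in hypoxia, for Raf-active and Raf-inactive cells. The bin from 72000001 to 73000000, with the synaptic genes CBLN2 and NETO1, had 14.8 ± 1.21 and 6.62 ± 1.26 in normoxia.

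On chromosome 19 the bin with the lowest log2 change with Raf in normoxia was also empty of coding genes. It ran from 28000001 to 29000000, with 7.28 ± 0.766 scaled peaks in Raf-active and 23.1 ± 1.55 in Raf-inactive cells. The next lowest, from 21000001 to 22000000, held 10 zinc finger genes such as ZNF100, ZNF208 and ZNF43 and had 20.5 ± 2.18 and 26 ± 1.65. The bins with the highest log2 change were gene-dense: that from 5000001 to 6000000, with KDM4B, a histone demethylase, and the fucosyltransferase FUT3, had 171 ± 4.76 in Raf-active and 89.4 ± 1.56 in Raf-inactive normoxia. That from 50000001 to 51000000, with the kallikrein KLK1, had 136 ± 8.11 and 70.8 ± 2.45 in normoxia and 130 ± 2.00 and 68.2 ± 2.56 in hypoxia. In hypoxia the bin from 54000001 to 55000000, with the KIR and LAIR1 leukocyte receptor genes, had 68.9 ± 2.72 in Raf-active and 38.0 ± 4.15 in Raf-inactive cells.

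Gene loci were then compared, a locus being the gene body with 10 kb on each side and its value the number of peaks in it, scaled to a common total per library. Of 268 coding genes on chromosome 18, 199 had a mean of at least 3 peaks over the 16 libraries and were tested, and of 1410 on chromosome 19, 1031 were. All 15187 such loci were fitted together in limma on log2 of scaled peaks plus 1, and called at an adjusted p below 0.05. Changes are on that scale, which understates those of loci with few peaks. The filter took all 16 libraries together. A locus with a mean under 3 peaks in 1 Raf state was thus tested only where the other was higher. Among such loci the direction of change is partly set by the filter. Loci of neighbouring chromosome 19 genes overlap and share peaks, and members of near-identical families (zinc finger, PSG, KIR and SIGLEC genes) may share reads, so they are not independent.

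With Raf in normoxia 40 chromosome 18 loci rose and 85 fell, with a median log2 change of -0.15, and 597 chromosome 19 loci rose and 67 fell, with a median of 0.35. Over all loci 37.2% rose and 25.9% fell, with a median of 0.099, against 20.1% and 42.7% on chromosome 18 and 57.9% and 6.50% on chromosome 19. In hypoxia 44 rose and 71 fell on chromosome 18 (22.1% and 35.7%), with a median of -0.12, and 494 rose and 90 fell on chromosome 19 (47.9% and 8.73%), with a median of 0.24, against 33.7% and 26.6% over all and a median of 0.055. Without scaling to a common total, the median over all loci was 0.33 in normoxia and 0.29 in hypoxia. The chromosome 18 split then turned, with 71 rising and 52 falling in normoxia and 81 and 41 in hypoxia, at medians of 0.080 and 0.12, still below the median over all. Chromosome 19 then had 830 rising and 18 falling in normoxia and 744 and 19 in hypoxia, at medians of 0.57 and 0.45. The direction of a small change on chromosome 18 is therefore relative to the total, while its place below chromosome 19 is not.

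With Raf in both oxygen states 29 chromosome 18 loci rose and 57 fell, and 415 chromosome 19 loci rose and 42 fell, against 25.2% rising and 19% falling in both over all loci. Of the chromosome 18 loci that rose in normoxia 2 fell in hypoxia, and of those that fell 3 rose in hypoxia. Of the chromosome 19 loci that rose in normoxia 5 fell in hypoxia.

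**Figure D5:**
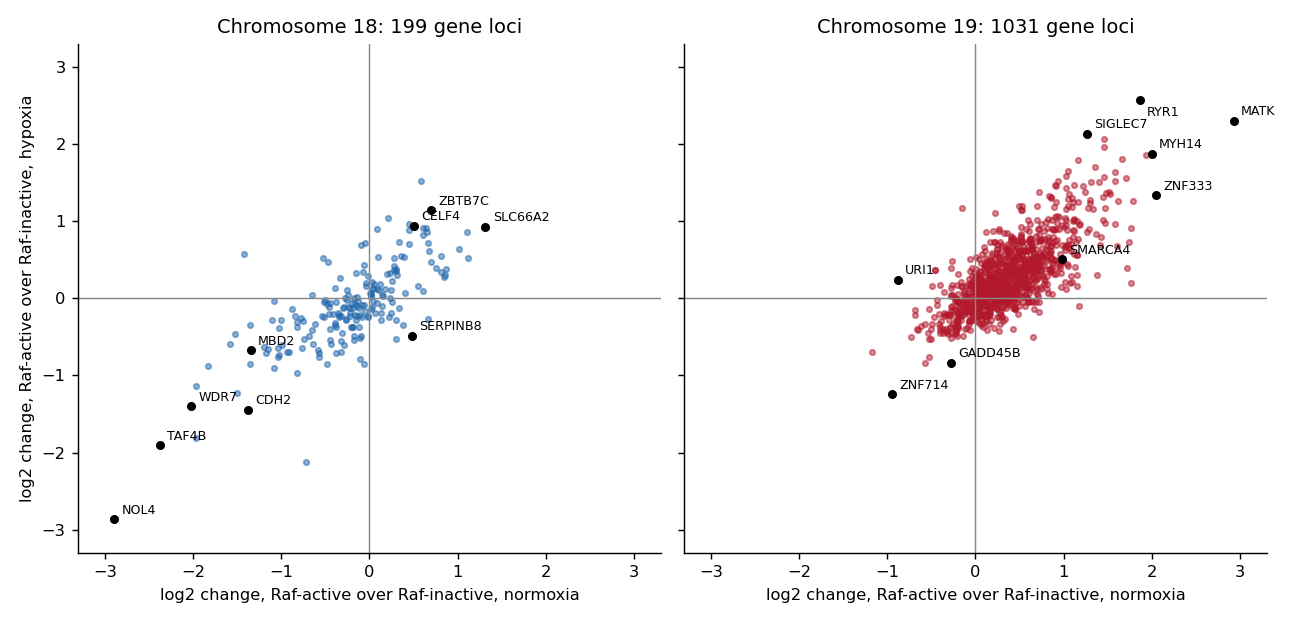
Log2 change with Raf of the loci tested on chromosome 18 (199) and chromosome 19 (1031) in normoxia (horizontal axis) and hypoxia (vertical axis); each point is a locus, and black points with names are loci given in the text. Chromosome 19 loci are shifted to the upper right, with medians of 0.35 and 0.24, and chromosome 18 loci extend to the lower left, with medians of -0.15 and -0.12.

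The largest losses on chromosome 18 were at genes of varied function. The locus of TAF4B, a subunit of the general transcription factor TFIID, had 0.892, 0.883, 0.949 and 0.885 scaled peaks in the Raf-active normoxia libraries, against 9.73, 7.63, 9.74 and 8.52 in the Raf-inactive ones. This was a single peak in each Raf-active library, a log2 change of -2.37 ± 0.13 (SE, adjusted p = 1.24e-10), and -1.91 in hypoxia. NOL4 had 0 peaks in all 4 Raf-active normoxia libraries, against 5.4, 6.54, 6.49 and 7.45 in Raf-inactive ones, and in hypoxia 0.932, 0, 0 and 0.938, against 9.98, 11.2, 7.99 and 7.84. It passed the test in both states (adjusted p = 1.6e-09 and 3.1e-09). WDR7, a WD-repeat protein gene, had 7.13, 7.06, 7.59 and 7.08 in Raf-active and 34.6, 27.3, 29.2 and 39.4 in Raf-inactive normoxia (-2.02 ± 0.10, adjusted p = 6.24e-11). ME2, the mitochondrial malic enzyme, fell by 1.97 in normoxia and 1.81 in hypoxia on the log2 scale. TMX3, a thiol oxidoreductase of the endoplasmic reticulum, fell by 2.12 in hypoxia. None of these groups overlapped. TAF4B, NOL4 and ME2 had Raf-active means under 3 peaks in both oxygen states, so they passed the filter through their Raf-inactive libraries.

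The chromosome 18 lists are read against the whole chromosome, where 20.1% of tested loci rose and 42.7% fell with Raf in normoxia. In hypoxia 22.1% rose and 35.7% fell. The cadherins, calcium-dependent adhesion proteins, had 2 of 11 listed genes with enough peaks to be tested, and both fell in both oxygen states (medians -1.21 and -0.91). CDH2 had 11.6, 12.4, 14.2 and 14.2 scaled peaks in Raf-active normoxia, against 32.4, 36, 39 and 35.1 in Raf-inactive normoxia. In hypoxia it had 13, 15.2, 13.7 and 15.9 in Raf-active cells, against 44.4, 45.8, 36.5 and 38.1 in Raf-inactive cells. The groups were far apart in both states, with log2 changes of -1.38 ± 0.10 and -1.45 ± 0.10 (adjusted p = 2.68e-09 and 2.84e-09). CDH20, a type II cadherin, fell by 1.03 in normoxia and by 0.38 in hypoxia (adjusted p = 0.0475, groups overlapping). The desmosomal cadherins and CDH7 and CDH19 had too few peaks to be tested.

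TGF-beta signalling passes through SMAD proteins. SMAD4, the common partner of signalling SMADs, had 6.24, 6.18, 5.69 and 7.97 scaled peaks in Raf-active and 9.73, 13.1, 13 and 11.7 in Raf-inactive normoxia (-0.78 ± 0.12, adjusted p = 3.68e-05), and SMAD2, a receptor-activated SMAD, fell by 0.51. SMAD7, the inhibitory member, rose by 0.30 in normoxia and 0.35 in hypoxia. Among peaks of at least 5-fold enrichment SMAD7 was at -0.064 in hypoxia. In hypoxia SMAD4 changed by -0.25 and did not pass. Of the 4 genes listed, 1 rose and 2 fell in normoxia (median -0.14) and 1 rose in hypoxia (median -0.12). The medians of all tested chromosome 18 loci were -0.15 and -0.12.

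Among 11 tested genes of growth, death and the cell cycle, 3 rose and 5 fell in normoxia (median -0.18) and 2 rose and 6 fell in hypoxia (median -0.31). Over the chromosome 20.1% of tested loci rose and 42.7% fell in normoxia, and 22.1% and 35.7% in hypoxia. MBD2, a reader of methylated CpG, fell by 1.34 in normoxia, with 4.46, 3.53, 4.74 and 4.43 scaled peaks in Raf-active and 11.9, 12, 14.1 and 11.7 in Raf-inactive cells. NDC80, a kinetochore subunit, fell by 1.17, and BCL2, the inhibitor of apoptosis, by 0.82. In hypoxia TYMS, thymidylate synthase, rose by 0.86 and YES1, a Src-family kinase, fell by 0.76, although YES1 was at 0.13 among peaks of at least 5-fold enrichment. TYMS had Raf-inactive means under 3 peaks in both oxygen states and passed the filter through its Raf-active libraries. Laminin and other matrix genes had 3 of 5 falling in normoxia and 1 in hypoxia (medians -0.22 and -0.080), led by CCBE1, a matrix protein of lymphatic growth, at -0.54 in normoxia, and by LAMA1 at -0.45. CCBE1 turned to 0.036 in normoxia and 0.082 in hypoxia among peaks of at least 5-fold enrichment.

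Developmental regulators of chromosome 18 went both ways, 2 up and 4 down of 10 in normoxia and 4 up and 4 down in hypoxia (medians -0.093 and -0.10). NFATC1, a calcium-regulated transcription factor, had 32.1, 29.1, 28.5 and 30.1 scaled peaks in Raf-active and 16.2, 20.7, 22.7 and 18.1 in Raf-inactive normoxia, a rise of 0.61, and of 0.91 in hypoxia. SETBP1, a chromatin-associated protein gene, rose by 0.73 in hypoxia. ZNF407, a zinc finger gene, fell by 0.68 in normoxia, and GATA6, a lung and heart regulator, by 0.57. Neural genes had 3 rising and 3 falling of 6 tested in normoxia and 3 and 2 in hypoxia (medians 0.097 and 0.33). NETO1, a receptor accessory protein, rose by 0.81 in normoxia, and CELF4, an RNA-binding protein, by 0.50 in normoxia and 0.94 in hypoxia. Of the serpins, 6 of 10 were tested. SERPINB12 fell in both states, by 0.99 in normoxia and 0.60 in hypoxia, while SERPINB8 was called up in normoxia (0.49) and down in hypoxia (-0.48). SERPINB12 had Raf-active means under 3 peaks in both states and passed the filter through its Raf-inactive libraries. SERPINB8 groups overlapped in both states, and it was at -0.13 in normoxia when counted as base pairs covered.

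The largest rises on chromosome 18 in normoxia were at SLC66A2, CPLX4, CTDP1 and C18orf32. SLC66A2 had 16.9, 15, 14.2 and 13.3 scaled peaks in Raf-active and 4.32, 5.45, 6.49 and 5.32 in Raf-inactive cells (1.32 ± 0.12, adjusted p = 5.62e-08). CTDP1, a phosphatase of RNA polymerase II, rose by 1.11, though it was at -0.12 among peaks of at least 5-fold enrichment. CPLX4, a complexin of synaptic release, rose by 1.12 and C18orf32 by 1.01. C18orf32 had Raf-inactive means under 3 peaks in both oxygen states and passed the filter through its Raf-active libraries. In hypoxia ZBTB7C, a zinc finger repressor gene, had 44.7, 44.6, 44.6 and 51.6 scaled peaks in Raf-active and 20, 19, 21.7 and 21.3 in Raf-inactive cells (1.14 ± 0.08, adjusted p = 3.35e-09). LOXHD1, a gene of inner-ear hair cells, rose by 1.52, MAPK4, an atypical MAP kinase, by 1.04, and ST8SIA5, a sialyltransferase, by 0.97.

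The largest rises on chromosome 19 were at MATK, ZNF333, MYH14 and CD209 in normoxia and at RYR1, MATK, SIGLEC7 and HIPK4 in hypoxia. MYH14, a non-muscle myosin heavy chain, had 22.3, 21.2, 19 and 20.4 scaled peaks in Raf-active and 3.24, 5.45, 6.49 and 3.19 in Raf-inactive normoxia (2.00 ± 0.17, adjusted p = 3.75e-08), and rose by 1.88 in hypoxia. RYR1 had 26.1, 25.6, 26.4 and 26.3 in Raf-active and 4.44, 3.35, 4.57 and 2.24 in Raf-inactive hypoxia (2.58 ± 0.15, adjusted p = 7.28e-10), and 26.8, 25.6, 22.8 and 21.2 against 6.48, 6.54, 6.49 and 4.26 in normoxia. The RYR1 groups stood far apart in both states. MATK, a kinase that inhibits Src-family kinases, had 11.6, 7.06, 6.64 and 7.97 in Raf-active normoxia and a single peak in 1 of 4 Raf-inactive libraries, and passed with an adjusted p of 1.57e-07. In hypoxia HIPK4, a kinase, had 4.66, 4.75, 5.46 and 5.63 in Raf-active libraries and 0, 1.12, 0 and 1.12 in Raf-inactive ones (adjusted p = 3.51e-05). MATK, ZNF333, CD209, SIGLEC7 and HIPK4 had Raf-inactive means under 3 peaks in both states, so they passed the filter through their Raf-active libraries.

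Zinc finger genes, most of them KRAB-type repressors of repeated DNA, were the longest list of chromosome 19. Of 250 genes 120 were tested, of which 60 rose and 13 fell in normoxia (median 0.27) and 41 rose and 15 fell in hypoxia (median 0.15). Both medians lay above that of all loci and below that of chromosome 19 (0.35 and 0.24), of whose loci 57.9% and 47.9% rose. ZNF333 had 8.92, 7.95, 7.59 and 6.2 scaled peaks in Raf-active and 1.08, 1.09, 1.08 and 1.06 in Raf-inactive normoxia (2.05 ± 0.11, adjusted p = 1e-10). ZNF780B rose by 1.77 and ZNF587 by 1.59 in normoxia, and ZNF562 by 1.52 and ZNF121 by 1.48 in hypoxia. ZNF333, ZNF780B, ZNF587 and ZNF121 had Raf-inactive means under 3 peaks in both states and passed the filter through Raf-active libraries. Zinc finger genes were also among the falls, with ZNF599 at -1.17 in normoxia and ZNF714 at -0.94 in normoxia and -1.24 in hypoxia. ZNF714 had Raf-active means under 3 peaks in both states and passed the filter through its Raf-inactive libraries. Other falls were URI1 at -0.88 and FBL, the nucleolar methyltransferase fibrillarin, at -0.74 in normoxia, and GADD45B, a stress-induced gene, at -0.84 in hypoxia.

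The lists that follow are read against the whole of chromosome 19, where 57.9% of tested loci rose with Raf in normoxia and 47.9% in hypoxia. Of 29 genes listed as leukocyte receptors by the start of their symbols 6 were tested and 5 rose in each state (medians 0.44 and 0.54). The other was KIRREL2, an adhesion gene of the nephrin family and no leukocyte receptor, at -0.15 in normoxia and -0.021 in hypoxia, neither of which passed. Of the 5, SIGLEC7, SIGLEC11 and LILRA6 had Raf-inactive means under 3 peaks in both oxygen states and passed the filter through their Raf-active libraries. The number of rises in this list is therefore partly set by the filter. SIGLEC7, an inhibitory sialic acid receptor of natural killer cells, had 9.32, 8.54, 9.1 and 6.57 scaled peaks in Raf-active and 1.11, 1.12, 1.14 and 1.12 in Raf-inactive hypoxia (2.13 ± 0.15, adjusted p = 3.72e-09), and rose by 1.26 in normoxia. CD209, a lectin of dendritic cells, rose by 1.93 in normoxia. Of 15 kallikreins, secreted serine proteases, 3 were tested and 2 rose in each state: KLK11 by 1.16 in normoxia and 1.26 in hypoxia, and KLK10, whose locus overlaps that of KLK11, by 0.91 and 1.26. KLK10 and KLK11 had Raf-inactive means under 3 peaks in both oxygen states, so they too passed the filter through their Raf-active libraries. Of 13 tested CEACAM and PSG genes 4 rose and 3 fell in normoxia (median 0.066) and 4 rose and 2 fell in hypoxia (median 0.20), with PSG6 rising in both (0.69 and 0.81) and PSG1 at -0.52 in hypoxia. The blood markers named above had peaks in more Raf-active than Raf-inactive cases, and their part in the receptor changes was not tested.

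Of 17 tested genes of stress, death and secretion 11 rose and 2 fell in normoxia (median 0.52) and 9 rose and 2 fell in hypoxia (median 0.26), shares of rises near those of chromosome 19 as a whole (57.9% and 47.9%). TNFSF9, the ligand of the T cell receptor 4-1BB, had 5.59, 4.75, 5.46 and 5.63 scaled peaks in Raf-active and 1.11, 1.12, 1.14 and 2.24 in Raf-inactive hypoxia, a rise of 1.43, and it rose by 1.03 in normoxia. NFKBIB, an inhibitor of NF-kappaB, rose by 1.05 in normoxia and 1.20 in hypoxia, CCNE1, cyclin E, by 1.03 in normoxia, and the complement gene C3 by 0.93 in hypoxia. TNFSF9, NFKBIB and CCNE1 had Raf-inactive means under 3 peaks in both states and passed the filter through their Raf-active libraries. Of 11 AP-1 and early response genes 7 rose and 1 fell in normoxia (median 0.34) and 5 rose in hypoxia (median -0.0067, while the others did not pass). PPP1R15A, a phosphatase subunit of the integrated stress response, rose by 0.52 and 0.81, and FOSB, an AP-1 subunit, by 0.48 in normoxia. NR2F6, a nuclear receptor, rose by 0.45 in normoxia and was at -0.23 among peaks of at least 5-fold enrichment.

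Of 16 tested chromatin genes 10 rose and 1 fell in normoxia (median 0.42) and 5 rose and 1 fell in hypoxia (median 0.056), near the 57.9% of chromosome 19 loci that rose in normoxia and below the 47.9% in hypoxia. That list also holds EHD2, a membrane-trafficking gene. SMARCA4, the BRG1 ATPase of SWI/SNF remodelling, had 16.9, 15.9, 13.3 and 13.3 scaled peaks in Raf-active and 7.56, 6.54, 7.58 and 6.39 in Raf-inactive normoxia, a rise of 0.98. SIRT2, a deacetylase, rose by 1.01 in normoxia and 0.63 in hypoxia, and HDGFL2, a reader of methylated histones, by 1.10 in normoxia. SIRT2, whose locus overlaps that of NFKBIB, had Raf-inactive means under 3 peaks in both states and passed the filter through its Raf-active libraries. In hypoxia UHRF1, which maintains DNA methylation, rose by 0.74 and KDM4B by 0.66. Matrix and contractile genes had 7 of 12 rising in normoxia and 5 in hypoxia (medians 0.29 and 0.13), again near the shares of the chromosome, with FBN3, a fibrillin, at 1.02 and 1.59 and COL5A3, a fibrillar collagen, at 0.69 and 1.02. TPM4, whose promoter peak was lost, had 15.8 ± 0.764 scaled peaks over its whole locus in Raf-active and 12.1 ± 0.631 in Raf-inactive normoxia (SD, n = 4 each), a rise of 0.35.

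With hypoxia in Raf-active cells the chromosomes moved apart in the reverse sense. On chromosome 18, 45 loci rose and 22 fell (median 0.073), and on chromosome 19, 34 rose and 203 fell (median -0.10), against 13.1% rising and 14.2% falling over all loci (median -0.015). SKOR2, a neural co-repressor of chromosome 18, had 7.45, 6.64, 7.28 and 5.63 scaled peaks in Raf-active hypoxia and 0.892, 1.77, 0 and 0.885 in Raf-active normoxia (2.12 ± 0.21, adjusted p = 2.72e-06). It is among the loci that fell with Raf in normoxia (-1.42) and rose with it in hypoxia (0.57). SETBP1 rose by 1.00, with 30.7, 35.1, 30.9 and 36.6 in hypoxia and 15.2, 15, 16.1 and 18.6 in normoxia, and CEP192, a centrosome gene, rose by 1.00. RBBP8 rose by 0.87 and MBD2 by 0.64. TMX3 fell by 1.31, and SS18, a SWI/SNF subunit, by 0.68.

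The chromosome 19 falls with hypoxia were led by CSNK1G2, a casein kinase, which had 3.73, 2.85, 2.73 and 2.81 scaled peaks in Raf-active hypoxia and 8.03, 10.6, 8.54 and 7.08 in Raf-active normoxia (-1.24 ± 0.12, adjusted p = 2.3e-06). SAFB, a nuclear scaffold protein, fell by 1.06 and ZNF8 by 1.01. Gene lists are read here against the 1031 tested chromosome 19 loci, of which 34 rose and 203 fell. The falls were 19.7% of those loci (median -0.10), beside 14.2% falling over all loci. Of the 120 zinc finger genes 6 rose and 34 fell (median -0.17), with ZNF780B at -0.92 after its rise with Raf in normoxia. Of the 16 tested chromatin genes 5 fell (median -0.20), among them DNMT1, the maintenance DNA methyltransferase, at -0.72 and PRMT1, an arginine methyltransferase, at -0.61. RELB, an NF-kappaB subunit, fell by 0.81. URI1 rose by 0.82, with ZNF233 and ZNF599 at 0.80 each. These comparisons share their Raf-active normoxia libraries with the Raf comparison in normoxia.

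In Raf-inactive cells hypoxia changed few loci. On chromosome 18, 11 rose and 12 fell (5.53% and 6.03%), and on chromosome 19, 71 rose and 90 fell (6.89% and 8.73%). Over all loci 6.06% rose and 6.8% fell. The medians of chromosomes 18 and 19 were -0.0051 and -0.023, beside -0.00082 over all loci. Without scaling 8 rose and 16 fell on chromosome 18, and 35 rose and 119 fell on chromosome 19. SETBP1 rose here too, by 0.59, with 20, 17.9, 19.4 and 21.3 scaled peaks in hypoxia and 11.9, 12, 13 and 13.8 in normoxia. SEH1L, a nuclear pore subunit, fell by 0.99 and MIB1, a ubiquitin ligase of Notch signalling, by 0.60. On chromosome 19 ZNF91, a repressor of primate repeats, rose by 1.15, with 3.33, 4.47, 3.42 and 3.36 in hypoxia and 1.08, 1.09, 1.08 and 1.06 in normoxia, and KISS1R, the kisspeptin receptor, rose by 0.83. ZNF562 fell by 1.17 and AKAP8, an anchoring protein of the nuclear matrix, by 1.01.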

How the data were processed

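ATAC-seq peak lists of 16 IMR90 libraries, 4 per group, were analysed, 1 list per library. Per the submitters' processing notes, the build was hg38 and the tools were MACS2, Bowtie2, bedtools, SAMtools, Picard, cutadapt, deepTools and FastQC. Versions, settings and any Tn5 offset are not given in the sources used here. The deposited lists give for each peak a score, the fold enrichment as a ratio over local background, and -log10 p and -log10 q values, all computed by the authors' peak caller. They hold called peaks only, so a missing peak is one that was not called. Read totals are not given in the sources used here.

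Repeated lines for an interval were counted as 1 peak on chromosomes 1 to 22 and X. Genes and promoters came from RefSeq tables of GRCh38.p14, restricted to assembled chromosomes. Members, gene lists and tests were chosen with earlier results of these data known. Named loci were the 4 largest called rises and falls per comparison and chromosome whose groups did not overlap, and up to 3 members of each list by size of change. A few others are named beside a result and were chosen after their values were seen. Named regions were the top ranked by the authors' -log10 p; 1 of them is not reported here.

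Chromosome totals were tested with exact permutation tests and Benjamini-Hochberg adjustment over 15 tests. For loci, limma 3.58.1 in R 4.3.3 fitted 4 group means. On simulated counts for Raf in normoxia (15187 loci, 200 changed 2-fold) 98% of changes were recovered, and 3.92% of calls were false. In the data 37.2% of loci were called as rising and 25.9% as falling in that comparison, many more than were changed in the simulation. The simulated false rate therefore does not carry over to the calls reported here. Background pileup was recovered from fold and p, and matched-depth lists were made by binomial thinning to the shallowest library, keeping a -log10 p of at least 5. Alternatives covered peak thresholds, list length, covered base pairs, scaling, filters, pseudocount, libraries left out and a replicate block.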

Additional observations from a re-analysis of the deposited data

Results flagged for a closer look

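Within a group, a library was singled out where its gap to the nearest other library, relative to the range of the group, exceeded the 95% critical value of Dixon's test for 4 values. Of 32 combinations of group and measure 2 did so, and chance alone gives about 1 in 20. Raf-inactive normoxia replicate 4 had 2.21% of its peaks on chromosome 18, below the other 3 libraries of its group, which reached 2.24%. Raf-active hypoxia replicate 3 had 2.06 Mb of chromosome 18 under peaks, above the mean of 1.99 Mb of its group.

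On 2 measures the permutation of oxygen labels within each Raf state passed, a test of whether oxygen had any effect rather than of unequal Raf effects alone. The log2 ratio of chromosome 18 to chromosome 19 peaks changed with Raf by -0.53 in hypoxia and -0.75 in normoxia, a difference of 0.22 (exact permutation, adjusted p = 0.0466), which no longer passed in 5 alternatives or without most single libraries. The share of peaks on chromosome 18 changed by -0.135 percentage points in hypoxia and -0.295 in normoxia, a difference of 0.159 (exact permutation p = 0.0245, adjusted p = 0.0357). For the share of chromosome 19 the difference was -0.294 points (exact permutation p = 0.0547, adjusted p = 0.0586), which did not pass.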

How the results depend on the processing

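The fall of the ratio of chromosome 18 to chromosome 19 peaks with Raf, and its rise with hypoxia, kept their direction and an exact permutation p of 0.0286 over stricter thresholds, equal list length, covered base pairs, matched depth and peaks over 1 kb from gene ends. The log2 difference with Raf ran from -0.92 to -0.49 in normoxia and from -0.69 to -0.42 in hypoxia. The Raf-by-oxygen difference of the ratio no longer passed at 5-fold enrichment (0.069), at a minimum -log10 q of 5 (0.18), at equal list length (0.19), at matched depth (0.20) and away from gene ends (0.24), or without some libraries (0.20 to 0.24). That of the chromosome 19 share passed for covered base pairs (-0.338 percentage points), and over libraries left out it ran from -0.325 to -0.265. The chromosome 18 share with Raf in hypoxia (-0.039 points) no longer passed at 5-fold enrichment, and that with hypoxia in Raf-inactive cells turned to -0.0035 points there. The last ran from 0.0060 to 0.020 over libraries left out, with no overlap only without Raf-inactive hypoxia replicate 1.

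The numbers of replicates do not pair the libraries: over 24 same-numbered pairs the correlation of deviations ran from -0.036 to 0.018. With the replicate block, an exact sign-flip over 4 pairs cannot go below p = 0.125, so no total could pass. The log2 ratio differences were -0.53 and -0.75 with Raf in hypoxia and normoxia, 0.30 and 0.076 with hypoxia in Raf-active and Raf-inactive cells, and 0.22 for their difference. The share of chromosome 18 differed by -0.135 and -0.295 points with Raf, by 0.171 with hypoxia in Raf-active cells and by 0.159 for the Raf-by-oxygen difference. That of chromosome 19 differed by 0.824 and 1.12 points with Raf in hypoxia and normoxia, and by -0.405 and -0.111 with hypoxia in Raf-active and Raf-inactive cells. As a term in the locus fit, the block moved no count of calls by more than 1.5 times.

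Counts of regions moved with the call rule and the peak threshold. Calling 3 of 4 against at most 1 of 4 gave, on chromosome 18, 1275 gained with Raf in hypoxia, 1158 in normoxia, 650 gained and 351 lost with hypoxia in Raf-active and 330 and 355 in Raf-inactive cells. On chromosome 19 it gave 2140 gained and 250 lost with Raf in hypoxia, 2628 and 331 in normoxia, 411 and 978 with hypoxia in Raf-active and 216 and 379 in Raf-inactive cells. At 5-fold enrichment, 507 chromosome 18 regions were gained with Raf in hypoxia and 180 with hypoxia in Raf-active cells. On chromosome 19, 755 and 815 were gained with Raf in hypoxia and normoxia, and 201 lost with hypoxia in Raf-active cells. At matched depth 194 chromosome 18 regions were gained with hypoxia in Raf-active cells.

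Counts of loci moved most without scaling, at 5-fold enrichment and with base pairs in place of peaks. Unscaled, 81 rose and 41 fell on chromosome 18 with Raf in hypoxia and 71 and 52 in normoxia. On chromosome 19, 744 rose and 19 fell in hypoxia, 18 fell in normoxia, and 35 rose with hypoxia in Raf-inactive cells. At 5-fold enrichment 43 and 56 fell on chromosome 18 with Raf in hypoxia and normoxia. On chromosome 19, 313 rose and 53 fell in hypoxia, 332 rose in normoxia, 94 fell with hypoxia in Raf-active cells and 42 rose in Raf-inactive cells. With base pairs covered, falls were 114 on chromosome 18 and 180 on chromosome 19 with Raf in hypoxia, and 112 on chromosome 19 in normoxia. With hypoxia they were then 146 falls on chromosome 19 in Raf-inactive cells, 78 and 67 rises on chromosomes 18 and 19 in Raf-active cells and 27 rises on chromosome 18 in Raf-inactive cells.

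At equal list length chromosome 19 falls with Raf were 45 in hypoxia and 35 in normoxia, and chromosome 18 falls with hypoxia in Raf-active cells 14. At matched depth, chosen after seeing the data, these were 52, 35 and 12, with 7 chromosome 18 falls in Raf-inactive cells. With a mean of at least 1 peak, chromosome 19 had 119 falls with Raf in normoxia and 62 rises with hypoxia in Raf-active cells. Fitting only the 8 libraries compared gave 7 rises on chromosome 18 and 20 rises and 46 falls on chromosome 19 with hypoxia in Raf-inactive cells. Leaving out libraries gave 43 to 54 chromosome 19 rises there, fewer than the 71 of all libraries.

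Some named loci changed sign. At 5-fold enrichment CCBE1 was at 0.036 in normoxia and 0.082 in hypoxia, NR2F6 at -0.23 and CTDP1 at -0.12 in normoxia, and SMAD7 at -0.064 and YES1 at 0.13 in hypoxia, all with Raf. With hypoxia in Raf-active cells ST8SIA5 was then at -0.044, CELF4 at -0.032, TGFB1 at 0.52 and VAPA at 0.41. With base pairs, SERPINB8 was at -0.13 in normoxia and SMAD7 at -0.035 in hypoxia with Raf, and PSG1 at 0.051 with hypoxia in Raf-active cells. Unscaled, CCBE1 was at 0.035 with Raf in hypoxia. The causes were not tested.

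Depth limits which weak peaks are called, and it moved with Raf. The alternative on base composition was not run, because no genome of the build was used here, so the part of G+C content in the difference between the chromosomes was not tested. Peaks away from genes were taken from both gene ends, since the annotation used gives no strand.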
